A study of Mus musculus with 9 samples.

Results

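The genes described here encode the machinery that starts transcription by RNA polymerase II: the polymerase subunits (Polr2 genes), the general transcription factors (Gtf2 genes), the TBP-associated factors (Taf genes) and the Mediator subunits (Med genes). They were chosen by name, as the protein-coding genes of the RNA-seq table whose symbol starts with Polr2 or Gtf2 or with Taf or Med followed by a digit. This gave 80 of the 19769 genes in the table, of which 76 passed the minimum level for the test, as did 11870 of all genes. RNA was measured in primary mouse embryonic fibroblasts (MEFs) from Myc-Egfp+/+ mice, in which MYC carries a GFP tag. The proteasome inhibitor MG-132 had been given to cells of both groups (20 µM over 6 h) so that MYC-GFP accumulated, and the cells were then sorted by GFP into low-MYC and high-MYC cells and seeded overnight. There were 2 libraries per group, which are technical replicates, and p-values therefore measure the spread between these libraries, not between independent cultures. Spike-in RNA (synthetic ERCC transcripts) was added according to the number of cells, and the values are therefore relative to cell number. The same series holds 1 FUBP1 ChIP-seq sample and a table of accessible chromatin (TACh-seq) of MEFs, both used below for the same genes. The TACh-seq samples are labelled wild type (WT) and KOKD, which stands for Fubp1 knockout MEFs with Fubp2 knocked down by siRNA.

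RNA polymerase II cannot find promoters by itself. TFIID, made of TBP and TAFs, binds the core promoter, TFIIA and TFIIB join it, TFIIF brings the polymerase, and TFIIE and TFIIH complete the complex and open the DNA. Mediator bridges sequence-specific activators, MYC among them, and the polymerase, and its kinase module controls that contact. The name rule also takes in genes with other tasks. Taf1a, Taf1b, Taf1c and Taf1d encode the TAFs of the RNA polymerase I factor SL1, Gtf2i, Gtf2ird1 and Gtf2ird2 encode the TFII-I family of DNA-binding proteins, Taf5l and Taf6l belong to the SAGA coactivator, Taf15 encodes an RNA-binding protein of the FET family, and Polr2m encodes Gdown1, which binds the assembled polymerase. TBP and the helicase and kinase subunits of TFIIH lie outside the rule because of their names and are given near the end.

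To show the promoters on which these complexes act at their own genes, 4 stretches of 120 bases directly before a RefSeq start site (GRCm38.p6) are printed 5′ to 3′ on the strand of the gene. Capitals mark TATAAA, the TATA box bound by TBP, or CACGTG, the E-box bound by MYC with MAX. Polr2a was chosen as the catalytic subunit, Gtf2h1 as the member of TFIIH with the lowest relative change, and Gtf2a1 and Taf9b as E-box promoters of paralog pairs. The windows are at chr11:69758634-69758753 on the minus strand, chr7:46795974-46796093 on the plus strand, chr12:91590488-91590607 on the minus strand and chrX:106221159-106221278 on the minus strand, in that order.
Polr2a: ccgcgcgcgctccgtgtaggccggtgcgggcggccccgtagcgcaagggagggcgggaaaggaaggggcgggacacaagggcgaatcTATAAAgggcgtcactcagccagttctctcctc
Gtf2h1: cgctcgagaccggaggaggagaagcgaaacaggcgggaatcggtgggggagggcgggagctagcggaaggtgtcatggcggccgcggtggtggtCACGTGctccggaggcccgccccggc
Gtf2a1: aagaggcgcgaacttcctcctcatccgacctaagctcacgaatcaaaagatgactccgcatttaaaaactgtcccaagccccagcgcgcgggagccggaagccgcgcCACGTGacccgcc
Taf9b: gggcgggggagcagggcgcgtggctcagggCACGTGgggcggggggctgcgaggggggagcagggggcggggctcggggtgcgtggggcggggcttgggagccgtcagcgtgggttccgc

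The TATA box of Polr2a begins at position -33 relative to the start site, and the E-boxes begin at -26 in Gtf2h1, at -13 in Gtf2a1 and at -90 in Taf9b. Of the 80 members, 69 matched a RefSeq promoter of 250 bases before to 50 after the start, with 84 windows in all. CACGTG (the same on both strands) was present in at least 1 window of 14 members (20.3%), against 12.2% of 8174 tested protein-coding genes with a window. Counted by window, 17.9% of member windows and 10.3% of the windows of those coding genes held it, against 7.15% of all 32851 promoters. TATAAA on either strand was found in 11 members (15.9%), against 8.11% of tested coding genes. By window it was present in 13.1% of member windows and 6.75% of the windows of those coding genes, against 13.6% of all promoters. The motifs do not overlap each other. A match is a description of the letters and no evidence of binding.

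Depth and identity of the libraries bear on all values below. The deposited FPK (fragments per kilobase) fell on whole multiples of 1 constant per library once multiplied by the genomic span of the gene, introns included. With the span, 67.4% to 68.6% of the genes with few reads came out whole within 0.02 reads, against 16.4% to 16.9% with the exonic length. The values are therefore per kilobase of genomic span, and genes with long introns have low values whatever their RNA level. For levels compared between genes, values were converted to the exonic length of GENCODE M21 and are called levels per kb of exon. That length joins the exons of all annotated transcripts, so it is too long for genes whose cells use few of them. The 4 libraries held an estimated 93757800, 96332000, 93493900 and 87683500 reads. In normalized units 1 read was worth 2.24 and 2.54 times as much in the high-MYC replicates as in low-MYC replicate 1. The high-MYC libraries had fewer reads in total. The median member also had fewer estimated reads in high-MYC (2553) than in low-MYC cells (2882), and the rises below rest on the spike-in score. Myc mRNA itself was at 9.81 and 9.86 normalized FPK in low-MYC and at 20.3 and 20.5 in high-MYC cells, a log2 fold change of 1.04. Fibroblast markers were present in all libraries (10 of 10 tested), summing to 334 and 339 normalized FPK in low-MYC and to 802 and 818 in high-MYC cells. Of 14 macrophage markers, 11 had a mean of at least 0.1, and their sum went from 0.948 and 1.30 to 30.1 and 31.4. Adgre1, Tyrobp and C1qa were at 0 in low-MYC replicate 1, and the part of these cells in the results was not tested. In bulk RNA, more cells of a type and more RNA per cell cannot be told apart. Across the 80 members, the exonic GC content correlated with the log2 ratio of the high-MYC replicates (r = -0.62) and of the low-MYC replicates (r = -0.34). It correlated less with the relative change described below (r = 0.14). Over 13451 genes the same correlations were -0.35, -0.027 and 0.051. These points share the same libraries.

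Every tested member was higher in high-MYC cells, on the scale of cell number. With 0.1 added to each value, as in the test, the median member lay where the median gene lay. On estimated reads the median log2 fold change was slightly lower for members (1.13) than for all genes (1.18). Of the 76 tested, 76 were higher at any fold with an adjusted p under 0.01, against 97.1% of all tested genes. The test was limma on log2(normalized FPK + 0.1), with Benjamini-Hochberg adjustment. Once the libraries were rescaled to a common median, 0 members were higher, against 1.76% of all tested genes. At least 2-fold higher were 46, against 55.1% of all tested genes. The median log2 fold change was 1.03 for the members and 1.03 for all genes, of which 5% lay below 0.59 and 5% above 1.35. Members ranged from 0.55 (Taf7) to 1.27 (Taf9), with 38 above and 38 below the median of all genes, and the 95% interval of 53 included that median. In none of the 80 did the groups overlap (0 members), and both high-MYC libraries also lay above both low-MYC libraries in 99.7% of the 13558 genes with at least 50 estimated reads on average. Without a pseudocount, the ratio of group means ranged from 1.52 to 2.75, with a median of 2.18, and 70 of 80 members reached 2, against 88.9% of the same 13558 genes.

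The pseudocount shrinks the change of members with long introns. Among the 7 tested members with a mean under 0.3, the median change was 0.61 on the log2 scale, with none at least 2-fold higher (0 members), whereas 39 of the 48 members with a mean of at least 1 passed that fold, against 85.1% of all tested genes with such a mean. On reads estimated from the spans (limma-voom, chosen after the data were seen), the median over those same 7 was 1.09, and over the 48 it was 1.12. On that scale 69 of 80 members were at least 2-fold higher, against 88.7% of 13558 genes, and the medians were 1.13 for members and 1.18 for all genes. The plot of changes by complex shows how narrowly most members lay around the general shift.

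**Figure D1:**
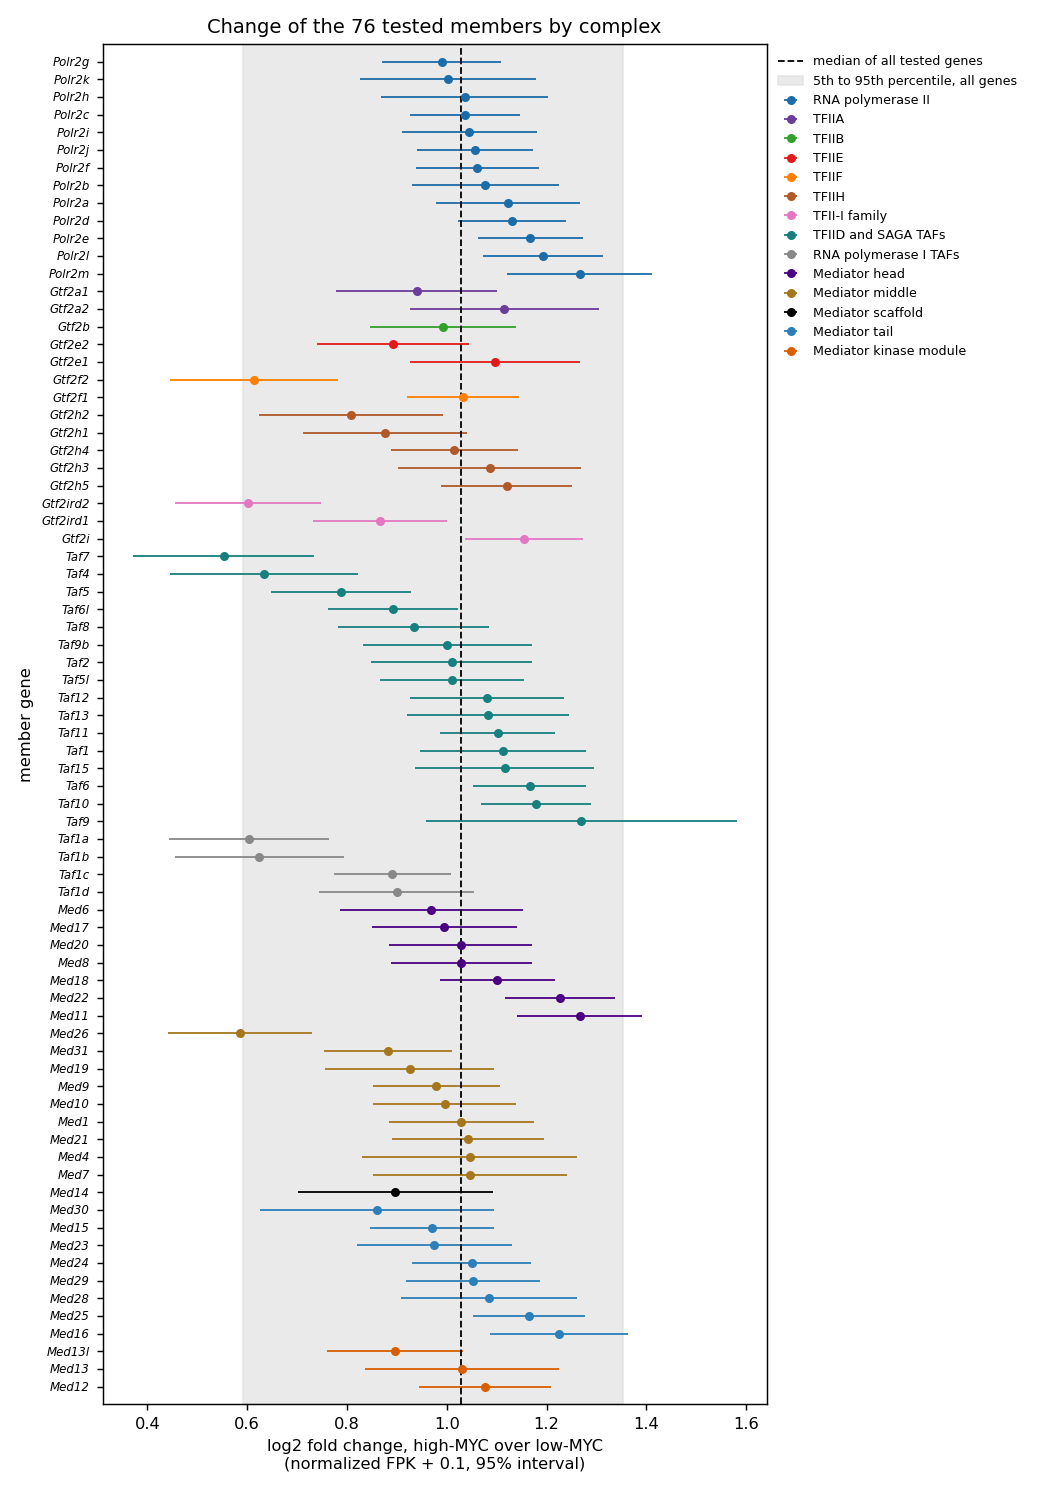
Log2 fold change of high-MYC over low-MYC cells (x axis, normalized FPK + 0.1) for the 76 tested members (y axis), grouped and coloured by complex; points are limma estimates, bars 95% intervals, the dashed line the median of all tested genes (1.03) and the grey band their 5th to 95th percentile (0.59 to 1.35). All points lie above 0, with Taf7 lowest (0.55) and Taf9 highest (1.27).

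The Polr2 genes, the polymerase subunits and Polr2m, rose together. Of 13, 12 were at least 2-fold higher, against 55.1% of all tested genes and 85.1% of those with a mean of at least 1. The median log2 fold change of the 13 was 1.06, and Polr2g alone lay just under the threshold (0.99). The same shares stand beside the counts at 2-fold per complex below. Polr2a, the largest subunit and the carrier of the repeated C-terminal domain, had 3.58 and 3.79 normalized FPK in the low-MYC and 7.84 and 8.43 in the high-MYC libraries. Its log2 fold change was 1.12 (SE 0.0566, adjusted p = 1.4e-05, limma). Polr2b, which forms the other side of the active centre, had 0.991, 1.03, 2.15 and 2.34 in the same order of libraries.

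Both large subunits thus moved together, at 1.12 and 1.08 on the log2 scale. The assembly pair Polr2c and Polr2j, which form a platform for the large subunits, changed by 1.04 and 1.06. Polr2c had 1.42 and 1.39 in low-MYC and 2.97 and 3.00 in high-MYC cells. Polr2j had 1.94 and 1.93 against 4.04 and 4.24. In both genes the groups were well apart, with replicates close to each other.

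The stalk of the enzyme, which holds nascent RNA, is made of Polr2d and Polr2g. Polr2d went from 1.45 and 1.48 to 3.31 and 3.34, a log2 fold change of 1.13. Polr2g went from 4.2 and 4.41 to 8.50 and 8.79, a log2 fold change of 0.99 (SE 0.0469, adjusted p = 1.24e-05, limma). The difference between these partners was not tested. Relative to the median gene, the change of Polr2g was negative. It did not pass in the main test but did on estimated reads, as given below beside the shares of all genes.

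Shared with RNA polymerases I and III are Polr2e, Polr2f, Polr2h, Polr2k and Polr2l, and all 5 passed 2-fold. Polr2e rose from 5.88 and 5.70 to 13.2 and 13. For Polr2f the values were 1.19 and 1.16 against 2.62 and 2.49, and for Polr2h 1.77 and 1.88 against 3.66 and 4.05. Polr2l, one of the smallest subunits, had 7.94 and 8.17 against 19.0 and 18, and Polr2k, which binds zinc, had 3.10 and 3.37 against 6.25 and 6.92. Their log2 fold changes ran from 1.00 (Polr2k) to 1.19 (Polr2l).

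Polr2i, which helps in proofreading, had 3.49 and 3.54 in low-MYC and 7.66 and 7.07 in high-MYC cells. Polr2m, encoding Gdown1, an inhibitor of transcription by the free polymerase that Mediator relieves, had 10.4 and 11.1 against 25.1 and 26.8. Its log2 fold change of 1.27 (SE 0.057, adjusted p = 1.14e-05, limma) was the highest among the Polr2 genes.

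Per kb of exon, levels of the Polr2 genes spread over a wide range although the enzyme holds its core subunits in equal number. Polr2m was highest, with 32.1 and 34.4 in low-MYC and 77.8 and 83.1 in high-MYC cells. Polr2g, Polr2l, Polr2k and Polr2a followed at means over the 4 libraries of 28.3, 26.4, 23.6 and 20.6. Polr2c (6.71) and Polr2i (6.48) were lowest. Their joined exonic lengths were 5256 and 1212 bases, and a length too long for the transcripts in use lowers this level. The order of the group means was the same in both groups except that Polr2d and Polr2j changed places, as did Polr2b and Polr2e. Polr2b and Polr2e overlapped between their libraries in each group, Polr2l overlapped with Polr2k in low-MYC and with Polr2g in high-MYC cells, and Polr2c overlapped with Polr2i in high-MYC cells only.

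**Figure D2:**
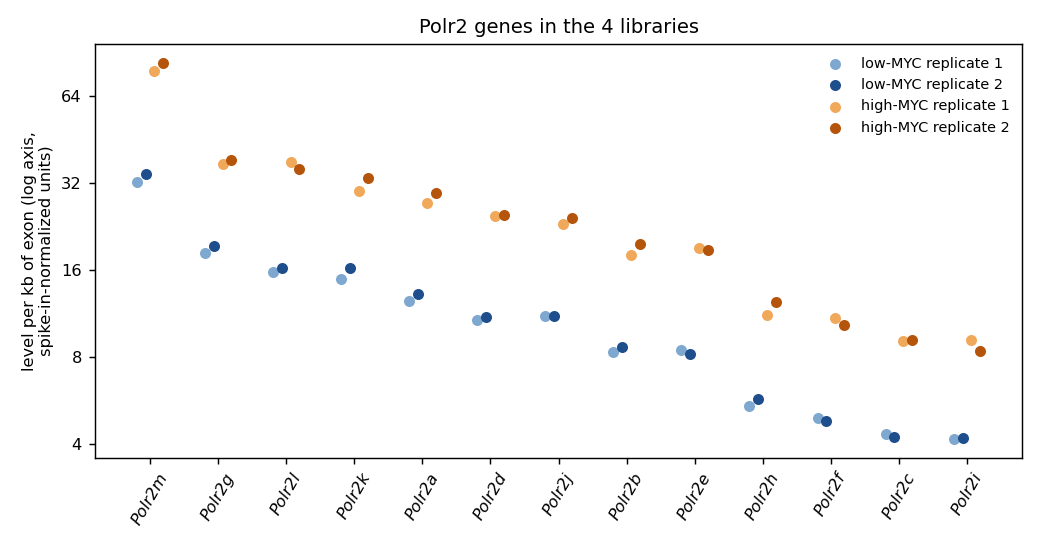
Level per kb of exon (y axis, log scale, spike-in-normalized units) of the 13 Polr2 genes (x axis, ordered by mean level) in each of the 4 libraries, one point per library. In every gene both high-MYC libraries lie above both low-MYC libraries, and Polr2m (mean 56.8) is highest.

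Among the general factors TFIIA, TFIIB, TFIIE, TFIIF and TFIIH, 6 of 12 members were at least 2-fold higher, against 55.1% of all tested genes. Their median log2 fold change was 1.00. TFIIA, which steadies TBP on the promoter, has its large precursor from Gtf2a1 and its small subunit from Gtf2a2. Gtf2a1 had 0.390 and 0.411 against 0.820 and 0.900, and Gtf2a2 had 0.906 and 0.973 against 2.02 and 2.29. The paralog Gtf2a1l is not analysed here. Gtf2b encodes TFIIB, which sets the start site, and went from 0.877 and 0.901 to 1.79 and 1.95, a log2 fold change of 0.99 (SE 0.0575, adjusted p = 1.97e-05, limma).

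TFIIE recruits TFIIH. Gtf2e1 had 0.468 and 0.492 in low-MYC and 1.08 and 1.2 in high-MYC cells, and Gtf2e2 had 0.234 and 0.244 against 0.510 and 0.550. In both genes the high-MYC libraries were clearly apart from the low-MYC ones, with log2 fold changes of 1.10 and 0.89.

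TFIIF travels with the polymerase, and its subunits show how far the deposited scale can mislead. Gtf2f1 had 4.64 and 4.43 against 9.39 and 9.39 normalized FPK, and Gtf2f2 had 0.115 and 0.120 against 0.220 and 0.246. The ratio of the partners in the 4 libraries was 40.3, 37.0, 42.7 and 38.1 per span, but 2.38, 2.19, 2.53 and 2.25 per kb of exon. Of the log2 fold changes with the pseudocount, 1.03 and 0.61, the second rose to 0.99 on estimated reads. Without a pseudocount the ratios of group means were 2.07 and 1.98. The partners thus differed far less in level than the deposited values show, and the gap between their changes came with the pseudocount.

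TFIIH opens the promoter and phosphorylates the polymerase tail, and its XPB helicase has been linked to FUBP1 in the control of Myc. Of its 5 members, 3 were at least 2-fold higher. Gtf2h1, a core subunit with the highest level of the 5 (13 per kb of exon), had 0.926 and 0.995 against 1.77 and 1.93. Gtf2h2, another core subunit and the lowest (2.14), had 0.196 and 0.197 against 0.391 and 0.449, while Gtf2h5, a small subunit that regulates the XPB helicase, had 3.25 and 3.38 against 7.09 and 7.56. Their log2 fold changes with the pseudocount were 0.88, 0.81 and 1.12, and those of Gtf2h3 and Gtf2h4 were 1.09 and 1.02. The order was different on estimated reads, where Gtf2h1 was lowest (0.94) and Gtf2h3 highest (1.22), with Gtf2h2 at 1.09.

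The TFII-I family, which binds DNA elements and is not part of the basal complex, had 1 of 3 members at least 2-fold higher. Gtf2i had 0.697 and 0.704 against 1.66 and 1.71, a log2 fold change of 1.15 (SE 0.0467, adjusted p = 1.04e-05, limma). Gtf2ird1 had 0.190 and 0.185 against 0.426 and 0.422, and Gtf2ird2 had 0.0605 and 0.0606 against 0.146 and 0.141. On estimated reads the 3 changes lay between 1.18 and 1.26. Per kb of exon Gtf2i exceeded Gtf2ird2 by 13.3, 13.5, 13.1 and 14.0 times in the 4 libraries, and Gtf2ird1 by 2.12 to 2.34 times.

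Of the 18 TAFs of TFIID and SAGA, 16 were tested and 11 were at least 2-fold higher, against 55.1% of all tested genes. Their median log2 fold change was 1.05. They held both the lowest and the highest change of all members. Taf7, a TFIID subunit that binds Taf1 and checks its acetyltransferase activity, had 0.774 and 0.852 in low-MYC and 1.18 and 1.30 in high-MYC cells. Its log2 fold change was 0.55 (SE 0.0715, adjusted p = 0.000546, limma) and its ratio of means 1.52, the lowest of the 80. The groups did not overlap. The paralog Taf7l is not analysed here.

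Taf9, a histone-fold TAF present in both TFIID and SAGA, had 0.351 and 0.461 against 1.04 and 1.19. Its log2 fold change was 1.27 (SE 0.122, adjusted p = 0.000139, limma), with the largest standard error among the tested members. Of its 2120 exonic bases, 1564 are shared on the same strand with Ak6, an adenylate kinase gene, and the read counts came out not whole, so how reads were split between them is uncertain. Taf9b, its paralog, had 0.221 and 0.240 against 0.537 and 0.587, a log2 fold change of 1.00 with the pseudocount. On estimated reads Taf9b changed by 1.28 and Taf9 by 1.46, both above the median of all genes on that scale (1.18). Per kb of exon the ratio of Taf9 to Taf9b was 0.744 and 0.898 in low-MYC and 0.907 and 0.948 in high-MYC cells, with the spread between low-MYC replicates wider than the gap between groups.

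Of the other TAF pairs, those of Taf4 and Taf5 had ratios that overlapped between the groups. Taf4, a scaffold of TFIID, had 0.121 and 0.126 against 0.228 and 0.267, and Taf4b, known from the germ line, was too low per span for the test at 0.0330 and 0.0352 against 0.0623 and 0.0703. Per kb of exon their ratio was 2.25, 2.19, 2.24 and 2.33. Taf5 of TFIID had 0.152 and 0.160 against 0.344 and 0.340, and Taf5l of SAGA had 0.655 and 0.686 against 1.40 and 1.5.

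In these fibroblasts the SAGA form was thus the more abundant transcript, with a Taf5 to Taf5l ratio of 0.160, 0.160, 0.168 and 0.155 per kb of exon. The order was the opposite for Taf6 and Taf6l, at 3.19, 2.95, 3.45 and 3.45. Taf6 had 1.48 and 1.43 against 3.37 and 3.42, and Taf6l had 0.385 and 0.403 against 0.810 and 0.823. Their log2 fold changes were 1.17 and 0.89, and the low-MYC and high-MYC ratios did not overlap. Of the 4476 exonic bases of Taf6, 1185 overlap Ap4m1 on the opposite strand, and its read counts came out not whole.

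Taf15 was the most abundant of this group (17.4 per kb of exon), with 0.883 and 0.945 against 1.98 and 2.22 normalized FPK, and Taf4b the least (1.14). Taf2, which contacts the initiator element, had 0.447 and 0.462 against 0.968 and 1.07. Taf1, the largest TAF, and Taf10, shared with SAGA, changed by 1.11 and 1.18. Of the 4584 exonic bases of Taf10, 2106 overlap Ilk on the opposite strand, and its read counts came out not whole. Taf3, which reads trimethylated lysine on histone H3, was not tested because of its long span, with 0.0606 and 0.0618 against 0.117 and 0.126.

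Of the TAFs of RNA polymerase I, 4 of 4 were higher at any fold and 0 of 4 at least 2-fold higher. Over all tested genes these shares were 97.1% and 55.1%. The median log2 fold change of the 4 was 0.76, or 0.98 on estimated reads. Taf1a had 0.118 and 0.113 against 0.217 and 0.238. Taf1b had 0.0695 and 0.0763 against 0.158 and 0.176. For Taf1d the values were 1.19 and 1.13 against 2.15 and 2.36, and the gene shares 137 exonic bases with a small RNA gene on the same strand. On estimated reads the 4 changes lay between 0.96 (Taf1d) and 1.19 (Taf1b), so that 3 of the 4 stayed below the median of all genes on that scale and Taf1b did not.

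Mediator had 30 members, 28 of them tested, and 16 were at least 2-fold higher, against 55.1% of all tested genes. The median log2 fold change of the 28 was 1.03. In the head, which contacts the polymerase, 5 of 7 passed. Med11 had 1.83 and 1.95 against 4.68 and 4.67, a log2 fold change of 1.27 (SE 0.049, adjusted p = 1.04e-05, limma). Med22, its partner in the head and the most abundant Mediator transcript (13.6 per kb of exon), had 5.36 and 5.44 against 12.5 and 13. Med6 had 0.511 and 0.493 against 1.01 and 1.15, and Med20, the least abundant of the head (2.71), had 1.00 and 0.965 against 2.03 and 2.19.

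Med11 and Med22, which pair in the complex, thus had the highest changes of the head, 1.27 and 1.23. In the middle, 4 of 9 passed 2-fold. Med7, which forms a hinge with Med21, had 2.13 and 2.18 against 4.24 and 4.90. Med19 (8.40 per kb of exon, the highest of the middle) had 1.16 and 1.21 against 2.21 and 2.47. Med26, which docks elongation factors, had 0.0802 and 0.0810 against 0.174 and 0.168. Its log2 fold change was 0.59 with the pseudocount and 1.09 on estimated reads. Med1, the target of nuclear receptors, changed by 1.03.

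Med14, the scaffold that joins head, middle and tail, had 0.489 and 0.527 against 0.966 and 1.10, a log2 fold change of 0.90 (SE 0.0766, adjusted p = 8.19e-05, limma). In the tail, where activators bind, 8 of 9 members were tested and 5 passed 2-fold. Med16 had 0.651 and 0.699 against 1.74 and 1.69, the highest change of the tail at 1.23. Med29 was the most abundant (12.0 per kb of exon), with 1.48 and 1.5 against 3.09 and 3.33.

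Med30, a metazoan subunit, had the lowest change of the tail by the test (0.86, but 1.11 on estimated reads, where Med29 was lowest at 1.10), with 0.229 and 0.233 in low-MYC and 0.453 and 0.555 in high-MYC cells. Its high-MYC replicates differed more than its low-MYC replicates. Med27 had 0.0424 and 0.0413 against 0.0931 and 0.0920 and was not tested, although 1483 to 1733 reads were estimated per library.

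The kinase module, which can detach Mediator from the polymerase, has paralog pairs. Med12 had 1.05 and 1.11 against 2.34 and 2.43, and Med12l had 0.00250 and 0.00226 against 0.00575 and 0.00514. Med12l was the least abundant member (0.0959 per kb of exon), and Med12 exceeded it by 52, 61.1, 50.5 and 58.7 times per kb of exon. Med12l has an exonic overlap on the opposite strand with Igsf10, and whether strand was used in counting is not given in the sources used here.

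Med13, which links the kinase to Mediator, had 0.826 and 0.903 against 1.76 and 1.98, and Med13l had 0.212 and 0.217 against 0.476 and 0.495. Their log2 fold changes were 1.03 and 0.90 with the pseudocount. Without it the order was the opposite, with ratios of group means of 2.17 for Med13 and 2.26 for Med13l. The ratio of Med13 to Med13l per kb of exon was 2.45 and 2.62 in low-MYC and 2.33 and 2.52 in high-MYC cells, so the groups overlapped in this proportion. The plot of both scales shows which members lost their rank through long introns.

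**Figure D3:**
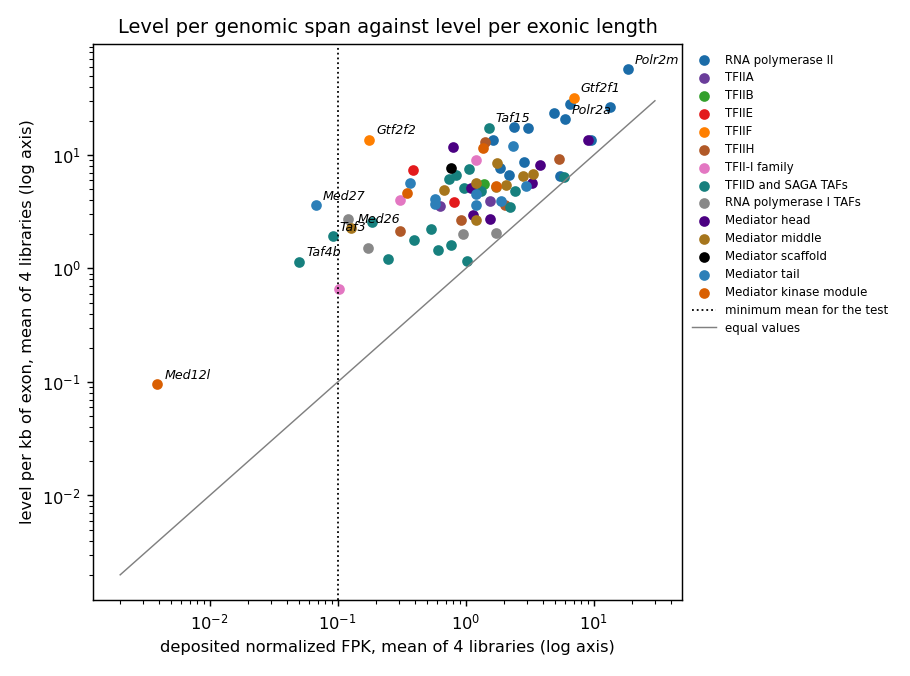
Deposited normalized FPK (x axis, log scale) against the level per kb of exon (y axis, log scale), means of 4 libraries, for the 80 members coloured by complex; the dotted line is the minimum mean of 0.1 and the grey line marks equal values. Gtf2f2 (0.175 and 13.6) lies far above the line of equal values, and Med12l, Taf4b, Med27 and Taf3 fall left of the minimum.

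The genomic span of the members was 1.08 to 77.7 times their exonic length, with a median of 4.56. All 4 members that missed the minimum level had reads enough for the fit on estimated reads. Taf3 had 1528 to 1899 and Taf4b 746 to 944 estimated reads per library, and Med12l had 146 to 184. On estimated reads they were higher in high-MYC cells by log2 fold changes of 0.98 (Taf3), 0.96 (Taf4b), 1.15 (Med27) and 1.2 (Med12l).

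Which members rose more or less than the typical gene was asked by rescaling the libraries to a common median. No member then differed at an adjusted p under 0.01 (0 of 76, limma), against 1.76% of all genes higher and 0.531% lower. At an unadjusted p under 0.05 there were 18 of 76, against 33.1% of all genes. The median relative log2 change was -0.046 for members and -0.0039 for all genes. Taf7 came nearest, at -0.52 (adjusted p = 0.0111, limma), followed by Gtf2h1 at -0.22 (0.04), Polr2g at -0.17 (0.046) and Med31 at -0.20 (0.0478). All 4 had a negative relative change.

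On estimated reads, 8 of 80 members were lower than the median gene at an adjusted p under 0.01 (limma-voom), against 9.28% of 13558 genes. None was higher (0 members), against 12.6% of genes. The 8 came from several complexes. Taf7 had a relative log2 change of -0.58 (adjusted p = 8.18e-06), Gtf2h1 of -0.25 (0.000104), Taf1d of -0.23 (0.000821), Med19 of -0.21 (0.00218), Gtf2f2 of -0.20 (0.00193), Taf3 of -0.20 (0.00424), Polr2g of -0.18 (0.00166) and Med14 of -0.17 (0.00534). The share of members lower is near that of all genes and is no result about the members.

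At the other end, Taf9 had 0.28 (adjusted p = 0.0455), Med16 0.15 (0.0279) and Med11 0.12 (0.188) on the same relative scale, with Med16 chosen after its value was seen. Of all 80, 59 had a negative relative change, against 52.3% of all genes, and the medians were -0.062 and -0.0081. The quartiles ran from -0.12 to 0.0028 for members and from -0.10 to 0.11 for all genes. By complex the median was -0.065 for the polymerase, -0.093 for the general factors TFIIA to TFIIH, -0.030 for TFIID and SAGA TAFs and -0.071 for Mediator, whose 9 middle subunits were all negative. The 14 members with an E-box had a median of -0.081 and the 55 without it -0.046.

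**Figure D4:**
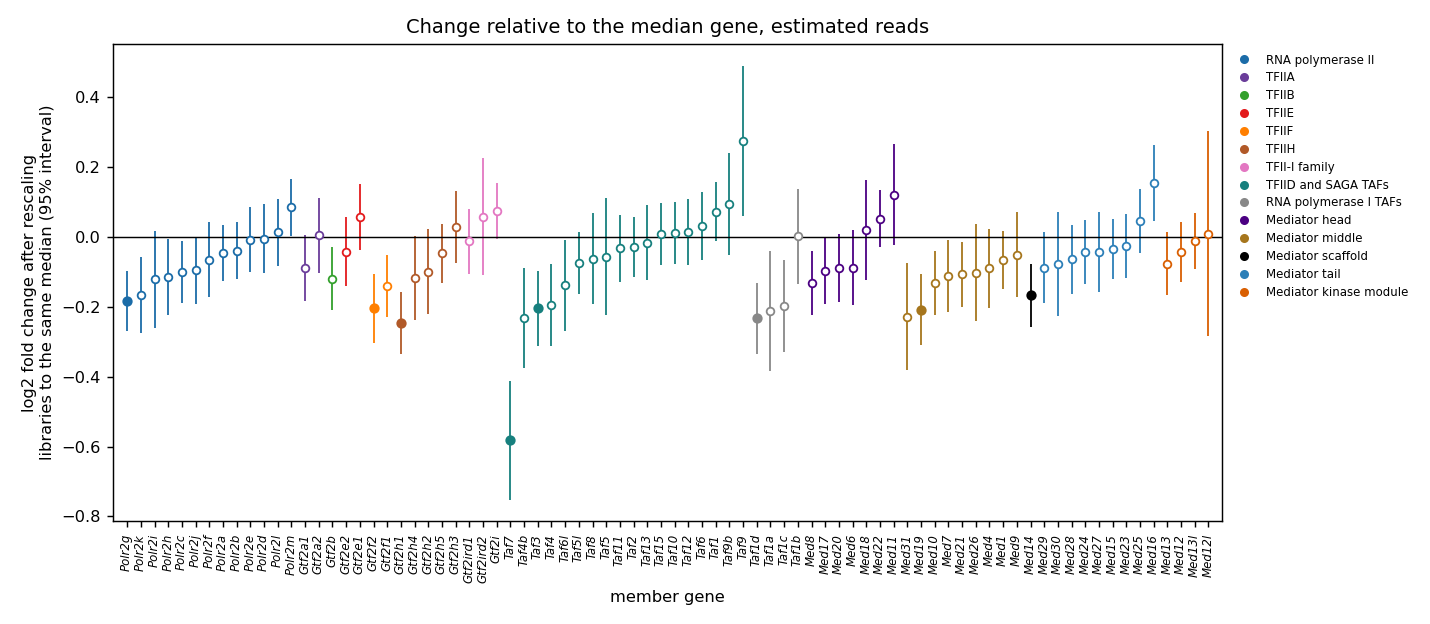
Relative log2 fold change (y axis) of all 80 members (x axis, by complex) after rescaling the libraries to a common median, from limma-voom on estimated reads; bars are 95% intervals and filled points have an adjusted p under 0.01. Filled points number 8 and all lie below 0, with Taf7 at -0.58, while Taf9 (0.28) is highest.

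Other genes of the machinery were taken from a list of 39. Of 38 tested, 21 were at least 2-fold higher, against 55.1% of all tested genes, with a median log2 fold change of 1.03. All 38 were higher at any fold, against 97.1% of all tested genes. TBP itself (Tbp, the TATA-binding protein) changed by 0.93, the TFIIH helicase genes Ercc2 and Ercc3 by 1.00 and 1.11, and the TFIIH kinase Cdk7 by 1.03. Cdk8, the kinase of Mediator, changed by 0.85, and Cdk9, the kinase of the elongation factor P-TEFb, by 1.19. Supt5, a pausing and elongation factor, changed by 1.11.

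The highest on that list were Hexim1 (1.28), an inhibitor of P-TEFb, and Nelfe (1.21), a subunit of the pausing factor NELF. Lowest were Mnat1 (0.60), the assembly subunit of the TFIIH kinase, and Ell (0.75), an elongation factor. This order depends on the pseudocount, since on estimated reads Mnat1 was at 1.04 and Ell at 0.99, and Tbpl1 (0.94), a relative of TBP, and Pcf11 (0.95), a termination factor, were lowest. Relative to the median gene on estimated reads, 6 of the 39 were lower and 0 higher at an adjusted p under 0.01 (limma-voom). Over 13558 genes these shares were 9.28% and 12.6%. The subunits particular to RNA polymerases I and III (18 genes) had log2 fold changes of 0.63 (Polr3g) to 1.17 (Polr3d), with a median of 0.95. Of these 18, 6 were at least 2-fold higher, against 55.1% of all tested genes. On estimated reads their median was 1.08, beside 1.12 for the 13 RNA polymerase II genes. The difference between the enzymes was not tested.

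FUBP1 binds single-stranded DNA. In MEFs the paper reports it upstream of Myc, over the gene and its 3′ end, and at many other genes. The deposited FUBP1 peaks, 166 in number, lie on chromosome 15 only, and the paper called more than these. Of the members, 4 lie on that chromosome: Polr2k, Polr2f, Taf2 and Med30. None overlapped a peak (0 of 4), whereas 13.5% of 408 expressed protein-coding genes of the chromosome did. The nearest peak was 208409 bp from Polr2f, 332437 bp from Med30, 410191 bp from Polr2k and 1039449 bp from Taf2. With 4 genes, no difference from that share was detectable.

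The labels of the WT and KOKD samples of accessible chromatin all point to 1 table. Its name refers to wild-type cells, but no column names a library, so which libraries its reads come from is not known and WT and KOKD MEFs were not compared. Within 500 bp of the start site, 71 of 80 members had reads, against 84.3% of 10261 tested protein-coding genes and 32.6% of 4857 coding genes with low values. The members' median was 111.5 reads and that of the tested coding genes 106. Polr2h had the most (335), followed by Polr2a (315), and the lowest count above 0 was 27 at Med13. The 9 members with 0 reads were Gtf2h2, Med10, Med12l, Polr2c, Polr2m, Taf1b, Taf4, Taf7 and Taf9b. Polr2m, the most abundant member by RNA, was thus among those with 0 reads. The table covers limited regions of the genome, so a count of 0 does not show closed chromatin.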

How the data were processed

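RNA-seq, FUBP1 ChIP-seq and TACh-seq files of MEFs were used. RNA-seq reads were trimmed by the authors, mapped with TopHat to mouse transcripts (mm10), assigned to genes with Partek E/M and divided by length and by an ERCC spike-in score; the deposited signal values are this normalized FPK. The methods name transcript length, whereas the values fit the genomic span. For ChIP-seq the authors aligned with Bowtie2 and called peaks with SICER, and positions only were used. The deposited TACh-seq table gives read positions and a mapping score per read, with no column for the library, after alignment by the authors with Bowtie2. Versions are not given in the sources used here.

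Groups came from the sample labels. Values were tested with limma 3.58.1 in R 4.3.3 on log2(value + 0.1), keeping genes whose mean was at least 0.1, with trend, an adjusted p under 0.01 (Benjamini-Hochberg over all genes) and a fold change of at least 2. Reads were estimated as value times span divided by the library's value of 1 read, and limma-voom was run on genes averaging at least 50. Reads shared by overlapping genes or paralogs are split by the quantification. Python 3.11.15, pandas 2.3.3 and matplotlib 3.10.9 did the rest. The test was checked on simulated data. Members and lists were chosen with earlier results of these data known. Named are every polymerase subunit, the highest and lowest level and change per complex, paralog pairs, members on chromosome 15, members apart from the all-gene median and, of the other machinery, 8 set genes (1 of them is not reported here) and the 2 highest and lowest changes. Gtf2h3, Gtf2h4, Taf1, Taf3, Taf10, Med1, Med31, Tbpl1 and Pcf11 were named after their values were seen. Medians and ranges cover the rest. Alternatives covered the pseudocount, minimum mean, trend, replicate block, left-out libraries, scaling, thresholds, peak overlap and TACh-seq window.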

Additional observations from a re-analysis of the deposited data

How the results depend on the processing

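The scaling mattered most. With the libraries rescaled to a common median, 0 of 76 members were at least 2-fold higher and 0 were higher at any fold with an adjusted p under 0.01 (limma), 0 of the other machinery passed 2-fold, and the median change of members was -0.046 on the log2 scale. Of the 59 named and tested members, 19 then kept a positive sign without passing, and 40 changed sign. Rescaling sets the change of the median gene near 0 (-0.0039 over all genes). A loss of 2-fold calls and many changes of sign were thus fixed in advance. These counts are therefore no result about the members. On rescaled estimated reads 52.3% of all genes had a negative change. Listed next, for only the 40 named members that changed sign, are the relative changes by limma on rescaled values, not on estimated reads. Among the RNA polymerase II genes the values were -0.034 for Polr2a, -0.026 for Polr2b, -0.085 for Polr2c, -0.052 for Polr2f, -0.17 for Polr2g, -0.10 for Polr2h, -0.11 for Polr2i, -0.081 for Polr2j and -0.15 for Polr2k. Among the general factors and TFII-I genes the values were -0.065 for Gtf2a1, -0.10 for Gtf2b, -0.024 for Gtf2e2, -0.13 for Gtf2f1, -0.12 for Gtf2f2, -0.22 for Gtf2h1, -0.10 for Gtf2h4, -0.064 for Gtf2h2, -0.034 for Gtf2h5 and -0.0013 for Gtf2ird1. Among the TAF genes the values were -0.12 for Taf1a, -0.21 for Taf1d, -0.015 for Taf2, -0.11 for Taf4, -0.032 for Taf5, -0.057 for Taf5l, -0.11 for Taf6l and -0.52 for Taf7. Among the Mediator genes the values were -0.050 for Med1, -0.20 for Med31, -0.031 for Med12, -0.060 for Med13, -0.00034 for Med13l, -0.14 for Med14, -0.18 for Med19, -0.073 for Med20, -0.050 for Med26, -0.073 for Med29, -0.048 for Med30, -0.066 for Med6 and -0.10 for Med7. The cause was not tested beyond the scaling itself.

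The pseudocount moved the count at 2-fold from 46 to 5 members with 1 (12.2% of all genes) and to 66 with 0.01 (84.9% of all genes), the median to 0.61 and 1.11, and the other machinery from 21 to 4 and 33, since the fold limit lies at the centre of the changes. A fold limit of 1.5 gave 75 members (94.1% of all genes). A minimum mean of 1 left 48 members, of which 48 were higher at any fold. On estimated reads, an alternative chosen after the data were seen, the median was 1.13. On that scale 35 of 39 other machinery genes passed 2-fold, against 88.7% of all genes. Leaving out each library in turn gave 33 to 51 members at least 2-fold higher, medians of 0.97 to 1.07 and 18 to 27 genes of the other machinery. Of the members, 76 remained higher at any fold in each case, and 0 lay apart from the all-gene median.

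The number of members apart from the all-gene median was 0, but 1 of 48 with a minimum mean of 1 (9.47% of all genes) and 1 of 76 with the libraries rescaled to the same sum (2.27%), Taf7 each time. It was 4 of 76 at an adjusted p under 0.05 (12.9%) and 8 of 80 on estimated reads (21.8%). The limma trend, the filter on low values, the overlap that defined a FUBP1 peak at a gene and the window and mapping score of TACh-seq changed no count by over 1.5 times.

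The replicate numbers mark technical replicates only, and the deviations of same-numbered libraries correlated at 0.081. With the number as a replicate block, 46 members were at least 2-fold higher, 76 higher at any fold and 0 apart from the median, so the block changed no call of a named member. Depth, 87683500 to 96332000 estimated reads per library, limits mainly Med12l.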
